A study of Rattus norvegicus with 62 samples.

Results

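The L4 dorsal root ganglion of male rats was examined 24 h after chronic constriction injury (CCI), as 6 ganglia from the injured (ipsilateral, IL) side against 6 from the opposite (contralateral, CL) side. These 12 libraries were all those labelled male and 24 h among the 62 libraries of the series, which also holds male and female ganglia from 1 and 5 weeks after injury. CCI is a model of neuropathic pain in which ligatures are tied loosely around the sciatic nerve. Both groups came from animals with the injury, each animal gave a ganglion of each side according to its code in the labels, and the groups used here hold no ganglion of an uninjured rat. The labels used here give no strain or age. Counts per gene came from poly-A RNA of whole ganglia, with 16.9 to 26.6 M counts in IL libraries and 20.6 to 24.0 M in CL libraries. Levels are counts per M counts on scaled library sizes (CPM), and the 6 values of a side are given as the lowest, the median and the highest.

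A dorsal root ganglion holds the cell bodies of sensory neurons, each wrapped by satellite glia, together with Schwann cells, vessels, connective tissue and resident macrophages. When a peripheral axon is damaged, its cell body is known to switch from a transmitting to a growing state: it makes stress and growth transcription factors such as ATF3, JUN and SOX11, secretes peptides and cytokines, and lowers many channels and receptors. In whole ganglia, fewer cells of a type and less RNA per cell cannot be told apart.

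Of 18135 genes tested, 2556 differed between sides (14.1%), 1487 higher on the injured side (8.2%) and 1069 lower (5.89%), by the two-sided quasi-likelihood test of edgeR at a Benjamini-Hochberg adjusted p under 0.05. Most differences were small: 75.25% of the increases and 79.89% of the decreases were under 1.5-fold. More than 4-fold were 67 increases and 19 decreases. The sign was the same in all 6 pairs of sides for 1058 of the increases and 673 of the decreases. The 6 IL values did not overlap the 6 CL values in 986 genes (5.44%), above them in 651 (3.59%) and below them in 335 (1.85%). Sensory neuron genes such as Scn10a, P2rx3 and Pou4f1 and the Y-linked Kdm5d and Eif2s3y were counted in each library. Number 5 of the opposite side stood apart, with the highest summed levels of blood, marrow, muscle and fat genes among the 12. Without it 2042 genes differed, 1234 higher and 808 lower. The fit behind all these calls took its spread from 38 libraries, with female ganglia of 1 and 5 weeks beside these 12, and did not pair the sides. The 12 libraries fitted alone gave 1597 calls, 1048 higher and 549 lower. Pairing the sides by animal number within the 38 gave 3142.

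**Figure D1:**
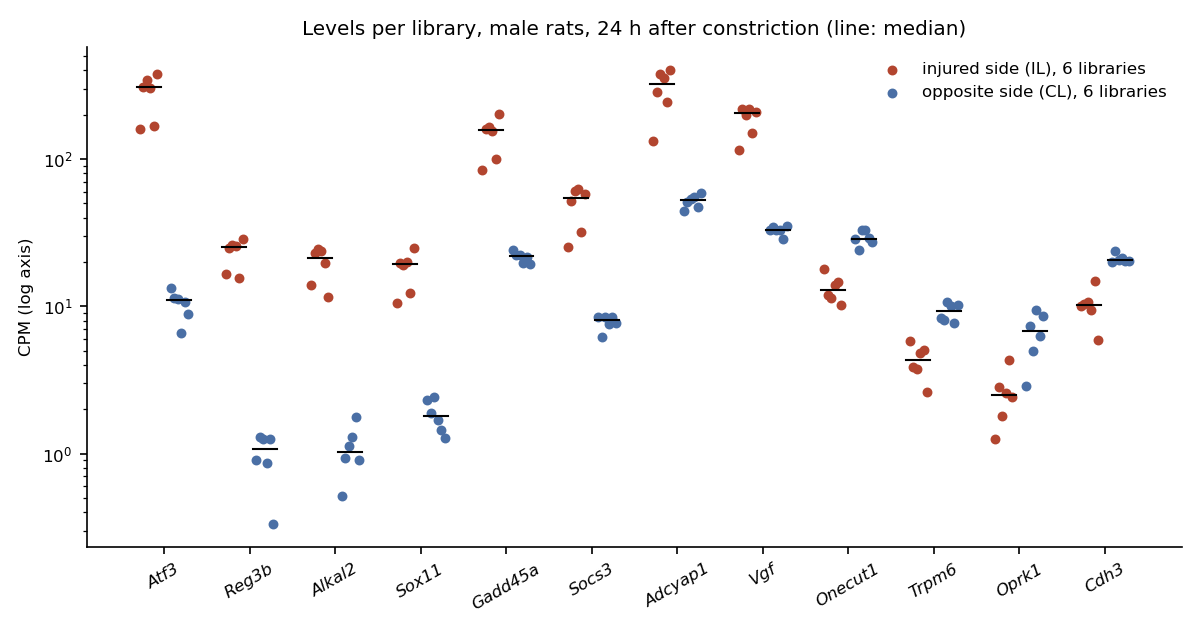
Level of 12 named genes in each library (CPM, log axis), with IL points left of CL points and a line at the median of 6. The 8 increases on the left do not overlap between sides, and of the 4 decreases on the right only Oprk1 overlaps.

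Promoter sequences bear on some of the gene groups described here. They come from the RefSeq table of the GRCr8 assembly, as windows from 250 bases before to 50 bases after the gene start in the direction of transcription. Vgf encodes a secreted peptide precursor and is among the 15 largest increases. Its window is shown because it holds the full cAMP response element TGACGTCA, 90 bases before the start, in capitals (chr12:25276971-25277270, minus strand).

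Vgf: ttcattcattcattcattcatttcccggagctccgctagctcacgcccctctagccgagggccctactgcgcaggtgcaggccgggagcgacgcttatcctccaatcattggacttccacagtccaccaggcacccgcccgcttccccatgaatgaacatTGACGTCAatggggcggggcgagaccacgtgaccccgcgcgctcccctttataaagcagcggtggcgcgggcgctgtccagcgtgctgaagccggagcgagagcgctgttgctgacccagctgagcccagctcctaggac

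The element, searched on both strands, was in 1.91% of all 27457 windows and in 2.88% of the 13576 that belong to tested genes. It was in 4.36% of the windows of genes called higher and in 1.75% of those of genes called lower. Windows of aminoacyl-tRNA synthetases, the enzymes that load tRNA with amino acids, are shown because 7 of the 17 with a window hold TGATGCAA or its reverse complement TTGCATCA, the core of the amino acid response element, against 0.743% of all windows. The element is known as a binding site of ATF4 with its partners. Of the 9 synthetases with a window that were called higher, 5 hold the core and are printed with it in capitals: Cars (chr1:208225320-208225619, minus strand), Tars1 (chr2:62114753-62115052, minus), Aars1 (chr19:55908232-55908531, plus), Yars1 (chr5:146819913-146820212, plus) and Mars1 (chr7:65023704-65024003, minus).

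Cars: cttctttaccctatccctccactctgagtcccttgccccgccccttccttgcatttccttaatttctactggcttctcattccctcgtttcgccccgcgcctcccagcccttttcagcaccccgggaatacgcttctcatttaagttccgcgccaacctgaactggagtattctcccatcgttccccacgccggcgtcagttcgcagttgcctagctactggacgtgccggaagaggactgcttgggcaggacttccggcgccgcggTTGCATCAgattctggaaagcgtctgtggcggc
Tars1: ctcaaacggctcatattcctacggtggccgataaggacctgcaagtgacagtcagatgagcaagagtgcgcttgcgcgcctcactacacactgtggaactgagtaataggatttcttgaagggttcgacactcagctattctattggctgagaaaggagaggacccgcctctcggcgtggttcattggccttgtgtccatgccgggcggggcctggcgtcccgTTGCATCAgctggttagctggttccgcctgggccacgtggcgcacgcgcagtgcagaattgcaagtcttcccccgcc
Aars1: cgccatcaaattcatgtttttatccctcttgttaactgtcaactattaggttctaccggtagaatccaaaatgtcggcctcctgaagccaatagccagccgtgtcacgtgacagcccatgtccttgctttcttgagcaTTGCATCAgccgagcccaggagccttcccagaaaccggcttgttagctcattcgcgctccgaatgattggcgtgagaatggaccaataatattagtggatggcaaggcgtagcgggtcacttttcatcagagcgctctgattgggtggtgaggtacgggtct
Yars1: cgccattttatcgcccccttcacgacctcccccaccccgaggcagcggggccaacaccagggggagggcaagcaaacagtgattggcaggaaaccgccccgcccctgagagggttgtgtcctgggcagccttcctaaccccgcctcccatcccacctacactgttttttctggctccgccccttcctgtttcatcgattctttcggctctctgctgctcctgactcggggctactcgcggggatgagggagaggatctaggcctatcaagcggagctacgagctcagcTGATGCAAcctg
Mars1: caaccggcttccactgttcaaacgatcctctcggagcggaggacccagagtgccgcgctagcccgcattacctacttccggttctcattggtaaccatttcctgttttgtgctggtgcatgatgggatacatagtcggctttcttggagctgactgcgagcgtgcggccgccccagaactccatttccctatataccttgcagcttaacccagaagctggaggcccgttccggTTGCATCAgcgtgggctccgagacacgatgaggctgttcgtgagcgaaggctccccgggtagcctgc

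In the list of the ATF4 stress response the core was in 3 of 24 windows, those of Chac1, Nupr1 and Pycr1, which were not called, and in 0 of the 9 windows of members called higher. Relative to the start, the core begins 27 bases before it in Tars1, 112 in Aars1 and 17 in Mars1, and lies after the start in Cars and Yars1. These matches describe letters in a window and not binding. The AP-1 site TGACTCA, to which JUN with FOS family partners binds, was in 5.38% of the windows of genes called higher, 2.56% of those of genes called lower, 3.62% of those of genes tested and 4.53% of all windows. It was in none of the 14 windows found for the 15 largest increases, too few to read at such a share.

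Transcription factors of the injured neuron rose together. Of 31 tested genes of this list 20 were called higher and 1 lower, with a median log2 fold change of 0.501, against -0.00898 over all genes. Atf3, a stress factor of injured neurons (chr13:102751278-102800520 in mRatBN7.2, as are all gene positions here), had 160, 306 and 376 CPM in IL ganglia, against 6.58, 10.9 and 13.3 CPM in CL ganglia. Every IL library stood above every CL library, with a log2 fold change of 4.74 (SE 0.214, adjusted p = 3.88e-17). Sox11, a factor of growing neurons (chr6:44008333-44010354), had 10.5, 19.3 and 24.8 CPM in IL ganglia and 1.28, 1.80 and 2.43 CPM in CL ganglia, a log2 fold change of 3.26 (SE 0.198, adjusted p = 1.88e-14). Jun, the AP-1 subunit needed for axon regrowth, had 172, 258 and 300 CPM in IL ganglia and 76.2, 92.6 and 99.7 CPM in CL ganglia. Its increase of 1.42 on the log2 scale (SE 0.115, adjusted p = 2.83e-11) again left no overlap. Stat3, which carries cytokine signals from the axon, rose by 0.54 (SE 0.0476), Myc by 1.21 (SE 0.112), Klf6 by 0.65 (SE 0.0782) and Smad1 by 0.98 (SE 0.0956). Isl1, a LIM factor of sensory neuron identity, was the member that fell, with 26.6, 35.6 and 40.7 CPM in IL ganglia and 43.6, 50.1 and 53.0 CPM in CL ganglia (log2 fold change -0.47, SE 0.069, adjusted p = 3.33e-06).

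Among 17 immediate early genes, 6 rose and 1 fell, or 2 with the replicate block, a fit that pairs the sides by animal number. Fos, the partner of JUN, rose by 1.05 (SE 0.195) and Egr3, a zinc finger factor driven by calcium and MAP kinase signals, by 0.96 (SE 0.178). Both sides overlapped in each. Fosb had 0.664 to 1.80 CPM in IL ganglia and 0.418 to 1.84 CPM in CL ganglia and did not pass. Arc, a dendritic protein gene, was called lower at an adjusted p of 0.0498, with 2.72, 3.09 and 4.53 CPM in IL ganglia and 4.04, 4.45 and 4.93 CPM in CL ganglia. Without CL number 1, 2, 3, 4 or 5 or IL number 2, 3, 5 or 6 it was not called.

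Secreted signals held some of the largest increases. In the list of ALK ligands, Reg3 lectins and other early signals, 6 of 9 tested genes were higher and none lower. Reg3b, a secreted lectin of injured neurons (chr4:110861775-110865015), had 15.5, 25.2 and 28.4 CPM in IL ganglia, against 0.333, 1.08 and 1.30 CPM in CL ganglia (log2 fold change 4.52, SE 0.491, adjusted p = 2.53e-08). Its neighbour Reg3a rose by 2.85 (SE 0.390). The Reg3 genes are close relatives, and reads shared between relatives entered the counts as fractions. Alkal2, a ligand of the receptor ALK (chr6:47495645-47505235), had 11.5, 21.2 and 24.4 CPM in IL ganglia and 0.514, 1.02 and 1.76 CPM in CL ganglia (log2 fold change 4.15, SE 0.279, adjusted p = 2.91e-13). For both genes the lowest IL value was several times the highest CL value. Csf1, which neurons release to microglia and macrophages, had 34.4, 52.7 and 61.3 CPM in IL ganglia and 16.7, 22.1 and 28.8 CPM in CL ganglia, a rise of 1.17 (SE 0.154, adjusted p = 8.16e-07). Il34, the other ligand of the same receptor, rose by 0.31 (SE 0.0854).

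Of 13 injury peptides and precursors tested, 5 were higher and none lower, but 2 with limma-voom or with the 12 libraries fitted alone. Adcyap1, which encodes the peptide PACAP (chr9:113102632-113122500), had 132, 321 and 404 CPM in IL ganglia and 44.2, 52.5 and 58.3 CPM in CL ganglia (log2 fold change 2.54, SE 0.157, adjusted p = 8.22e-14). Gal, which encodes galanin, had 6.19, 11.7 and 21.3 CPM in IL ganglia and 4.06, 5.38 and 6.76 CPM in CL ganglia, a rise of 1.15 (SE 0.306, adjusted p = 0.00866). The sides overlapped in Gal, and with limma-voom its adjusted p was 0.122. Vip, another peptide of injured neurons, was scarce, with 0.338, 1.10 and 4.68 CPM in IL ganglia and 0.0483, 0.178 and 0.371 CPM in CL ganglia (log2 fold change 3.01, SE 0.704, adjusted p = 0.0027, 0.249 with limma-voom). Npy had 0.724, 1.16 and 3.41 CPM in IL ganglia and 0.417, 1.15 and 5.17 CPM in CL ganglia, and did not pass (adjusted p = 0.57). Of 8 peptides of uninjured nociceptors 1 was called (12.5%), near the 14.1% over all genes. This was Calcb, which encodes the second form of the calcitonin gene-related peptide. It had 86.5, 100 and 135 CPM in IL ganglia and 53.2, 65.3 and 75.5 CPM in CL ganglia (log2 fold change 0.71, SE 0.116, adjusted p = 2.77e-05). Calca and Tac1, which encodes substance P, had log2 fold changes of 0.31 (SE 0.148) and 0.26 (SE 0.156) and did not pass.

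Of 15 genes of the neurotrophin and GDNF families 3 rose (20% called, against 14.1% over all genes), Bdnf, Gdf15 and Gfra1. Vgf rose in the list of other growth factors. Bdnf, a neurotrophin (chr3:96165042-96215621), had 35.4, 58.5 and 71.5 CPM in IL ganglia and 13.8, 16.3 and 19.7 CPM in CL ganglia (log2 fold change 1.79, SE 0.15, adjusted p = 5.02e-11). Vgf, whose promoter is printed above (chr12:19637313-19645123), had 115, 204 and 220 CPM in IL ganglia and 28.6, 32.8 and 35.4 CPM in CL ganglia (log2 fold change 2.49, SE 0.146, adjusted p = 1.88e-14). Neither gene overlapped between sides. Gdf15, a stress-induced member of the TGF-beta family, had 0.788, 1.53 and 2.24 CPM in IL ganglia and 0.0483, 0.247 and 0.325 CPM in CL ganglia (log2 fold change 2.80, SE 0.346, adjusted p = 1.36e-07). Gfra1, a GDNF receptor subunit, rose by 0.43 (SE 0.0581). Among 26 genes of BMP, activin and TGF-beta signalling 1 rose and 4 fell (19.2% called, against 14.1% over all genes). The decreases were 2 without CL number 1, 2 or 5 or IL number 3 or 4, and 1 without CL number 3 or IL number 2. The largest decrease there was Inhbb, an activin subunit, with 9.04, 11.4 and 13.1 CPM in IL ganglia and 17.4, 21.1 and 23.2 CPM in CL ganglia (log2 fold change -0.90, SE 0.127, adjusted p = 2.27e-06).

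Genes of cytokine signalling rose on the receptor and feedback side as well as among ligands. In the IL-6 family 8 of 22 tested genes were higher and none lower. Il6 itself (chr4:5214602-5219178) had 0.764, 2.90 and 5.62 CPM in IL ganglia, while in CL ganglia it was at 0 in 3 libraries and at most 0.187 CPM (log2 fold change 5.99, SE 0.513, adjusted p = 3.58e-11). Socs3, the feedback inhibitor induced by this pathway (chr10:103193909-103197322), had 25.3, 54.8 and 62.6 CPM in IL ganglia and 6.21, 8.04 and 8.50 CPM in CL ganglia (log2 fold change 2.63, SE 0.192, adjusted p = 2.79e-12). All IL values of both genes were above all CL values. Osmr, the oncostatin M receptor subunit, rose by 0.83 (SE 0.124) and Jak2, the kinase under it, by 0.47 (SE 0.0721). Lif, a ligand of the family, had 0.259 to 0.713 CPM in IL ganglia and 0.145 to 1.44 CPM in CL ganglia and did not pass.

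Of 25 genes of the interleukin-1 and TNF systems, 6 were higher and none lower. Il1r1, the signalling receptor of interleukin-1, had 27.3, 36.4 and 40.1 CPM in IL ganglia and 10.4, 12.7 and 14.7 CPM in CL ganglia (log2 fold change 1.45, SE 0.113, adjusted p = 5.3e-12). Tnfrsf1a, the main TNF receptor, rose by 0.84 (SE 0.0787) and Myd88, the adaptor under interleukin-1 receptors, by 0.71 (SE 0.105). Il1b had 0.423 to 3.60 CPM in IL ganglia and 0.385 to 1.76 CPM in CL ganglia and did not pass. Of 19 chemokine genes 4 rose and 1 fell, with 2 increases without IL number 6. Ccl2, which attracts monocytes (chr10:67005424-67007222), had 28.7, 42.4 and 46.7 CPM in IL ganglia and 7.75, 9.64 and 10.5 CPM in CL ganglia (log2 fold change 2.06, SE 0.195, adjusted p = 9.75e-10). Cxcl13, a B cell attractant, had 2.51, 5.92 and 49.1 CPM in IL ganglia and 0.856, 1.19 and 5.47 CPM in CL ganglia. Number 6 was the highest on both sides. Its log2 fold change of 2.65 (SE 0.765, adjusted p = 0.0159) was 1.40 without IL number 6, with an adjusted p of 0.207. Cxcr4, the receptor of CXCL12, fell by 0.55 (SE 0.120, adjusted p = 0.00122).

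Genes of growth cones and regeneration rose, 20 of 34 higher and none lower. Flrt3, an adhesion protein of growing neurites (chr3:127994491-128008137), had 68.0, 139 and 235 CPM in IL ganglia and 17.4, 18.5 and 20.6 CPM in CL ganglia (log2 fold change 2.91, SE 0.189, adjusted p = 2.91e-13). Stmn4, a tubulin-binding stathmin, rose by 1.45 (SE 0.170), Tubb6, a tubulin of regrowing axons, by 1.22 (SE 0.159), and Hspb1, a small heat shock protein that protects injured neurons, by 0.79 (SE 0.101). Gap43, the growth cone protein, had 175, 237 and 260 CPM in IL ganglia and 153, 179 and 196 CPM in CL ganglia. The sides overlapped, and the rise was 0.36 (SE 0.0904, adjusted p = 0.00457). Sprr1a, which is nearly silent in intact neurons, was at most 0.45 CPM in IL ganglia and was counted in 1 CL library at 0.0464 CPM. Its call (adjusted p = 0.00249) was lost with limma-voom.

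Among 38 genes of collagen, fibroblasts and matrix 2 rose and 4 (Col14a1, Col1a1, Sparc and Col1a2) fell, with a median of -0.216 and 6 genes above 0. The share called was 15.8%, near the 14.1% over all genes. The decreases were 0 without IL number 4, 1 without CL number 1 or 5 or IL number 2, 2 without CL number 3 or IL number 3 or 5, 7 without CL number 6, 9 without CL number 4 and 11 without IL number 1, and 8 with the replicate block. The summed level of the list was 9625 to 14500 per M counts in IL ganglia and 10360 to 18170 in CL ganglia (exact two-sided permutation p = 0.0671). Serpinb2, an inhibitor of plasminogen activators (chr13:23537312-23551823), had 1.15, 5.50 and 15.9 CPM in IL ganglia and was at 0 in 3 of the CL libraries, with 0.234 CPM at most (log2 fold change 6.74, SE 0.575, adjusted p = 5.37e-11). In its list of extracellular proteases and inhibitors 10 of 23 genes were higher and 2 lower. The decreases were 1 without CL number 5 or IL number 1, 2, 5 or 6, and 0 without IL number 4. Sema6a, a transmembrane semaphorin, had 67.4, 136 and 190 CPM in IL ganglia and 31.9, 36.6 and 39.2 CPM in CL ganglia (log2 fold change 1.83, SE 0.167). Further genes among the 15 largest increases were Smagp, a small transmembrane glycoprotein gene (2.96, SE 0.233), Tgm1, a transglutaminase gene (2.47, SE 0.297), and Arid5a, an RNA-binding protein known to stabilise Il6 transcripts (2.19, SE 0.158). Gfap, the intermediate filament of reactive glia, had 24.9, 87.0 and 104 CPM in IL ganglia and 8.65, 15.2 and 22.0 CPM in CL ganglia (log2 fold change 2.24, SE 0.243, adjusted p = 2.53e-08). Gfap is 1 of 3 increases among 25 satellite glia markers, of which 1 fell and whose median was -0.0377. The share called among these markers was 16%, also near that over all genes. With the replicate block 5 of them rose and 3 fell, and the decreases among proteases and inhibitors were 1.

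**Figure D2:**
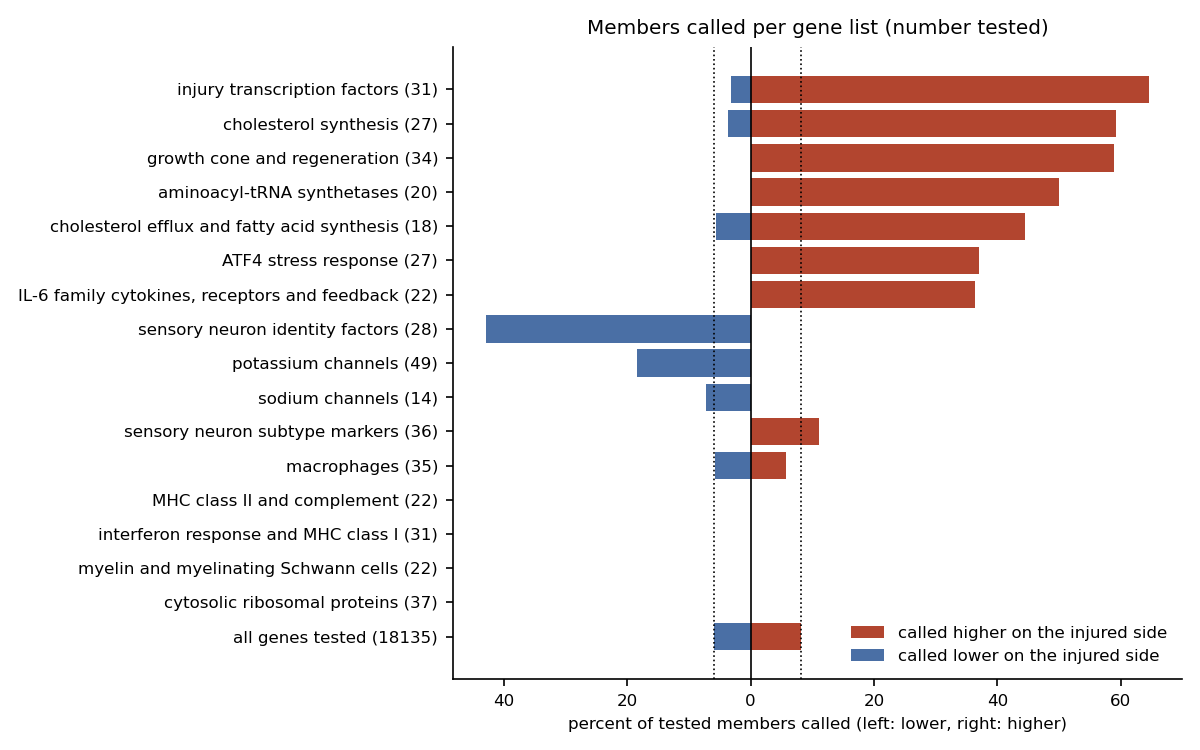
Percent of the tested members of each list called lower (left, blue) or higher (right, red) on the injured side, with dotted lines at the share over all 18135 genes. Among the lists drawn, which leave out the ALK and Reg3 list at 66.7%, transcription factors, cholesterol synthesis and growth cone genes reach furthest right and identity factors furthest left. The lists of MHC class II, interferon response, myelin and ribosomal proteins hold no call in this fit.

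Stress genes were also among the increases. In DNA damage and growth arrest 7 of 22 genes were higher and 1 lower. Gadd45a (chr4:96154789-96157091) had 83.8, 157 and 201 CPM in IL ganglia and 19.3, 22.0 and 24.2 CPM in CL ganglia (log2 fold change 2.73, SE 0.151, adjusted p = 5.18e-15), and the cell cycle inhibitor Cdkn1a rose by 1.5 (SE 0.191). Of 27 genes of the ATF4 stress response, 10 rose and none fell. Atf4, whose protein switches on amino acid supply genes, had 205, 254 and 261 CPM in IL ganglia and 185, 192 and 203 CPM in CL ganglia (log2 fold change 0.33, SE 0.0482, adjusted p = 4.02e-06). All 6 IL values lay above the CL values, by little. Ppp1r15a, which restarts translation after stress, rose by 0.43 (SE 0.0572), the amino acid transporter subunit Slc3a2 by 0.39 (SE 0.0516) and Trib3 by 1.35 (SE 0.255). Ddit3, the death-linked factor CHOP, had 15.2 to 20.1 CPM in IL ganglia and 15.7 to 19.7 CPM in CL ganglia and did not pass. Of 18 genes of the unfolded protein response 4 rose. Dnajb9, a chaperone of the endoplasmic reticulum, rose by 0.44 (SE 0.0705), while Hspa5, the main chaperone there, had a log2 fold change of 0.14 (SE 0.0665) that did not pass, but did with the replicate block (adjusted p = 0.00458). With that block the decreases were 3 in DNA damage and 1 in the ATF4 list. Without IL number 6, 5 of the ATF4 list were called higher, and 6 without IL number 2 or CL number 6.

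Of the 20 synthetases tested, 10 were higher and none lower, with a median of 0.102. Without CL number 5 or IL number 3 the increases were 6. Cars, which loads cysteine, had 36.8, 40.6 and 47.9 CPM in IL ganglia and 29.7, 33.5 and 35.0 CPM in CL ganglia (log2 fold change 0.33, SE 0.0552, adjusted p = 3.71e-05). Tars1, for threonine, rose by 0.31 (SE 0.0695), Yars1, for tyrosine, by 0.16 (SE 0.0366) and Aars1, for alanine, by 0.14 (SE 0.0318). The windows of these 4 were printed above because they hold the amino acid element core. Eprs rose by 0.127 (adjusted p = 0.00194) and has a window without the core. Antioxidant genes rose with them: in heat shock and oxidative stress 7 of 22 were higher and none lower. Srxn1, which repairs oxidised peroxiredoxins, had 111, 160 and 183 CPM in IL ganglia and 77.3, 81.3 and 89.0 CPM in CL ganglia (log2 fold change 0.90, SE 0.0792, adjusted p = 9.99e-11), and Txnrd1, a thioredoxin reductase, rose by 0.58 (SE 0.0564). Proteasome and ubiquitin genes (9 of 29 higher), ribosome biogenesis genes (6 of 22) and glycolysis genes (5 of 21) held no decrease. The count for proteasome and ubiquitin genes was 3 without CL number 5 and 15 without IL number 1. That for glycolysis was 2 without CL number 5, 3 without CL number 3 or IL number 2 or 4, and 8 without IL number 1. The proteins of the ribosome itself held no call in 37 genes, with 2 at an unadjusted p under 0.05 and none with limma-voom or DESeq2.

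Cholesterol synthesis was the metabolic list with the largest share, 16 of 27 genes higher and 1 lower, with a median of 0.216. Insig1, a sterol-regulated brake of the pathway (chr4:7315494-7323972), had 213, 255 and 282 CPM in IL ganglia and 145, 172 and 179 CPM in CL ganglia (log2 fold change 0.60, SE 0.067, adjusted p = 2e-08). The sides did not overlap. Among the enzymes, Mvd rose by 0.62 (SE 0.103), Msmo1 by 0.39 (SE 0.0757), Fdps by 0.29 (SE 0.0501) and Sqle by 0.29 (SE 0.0592). Hmgcs1 had a log2 fold change of 0.12 (SE 0.0647) and did not pass, but did with the replicate block (adjusted p = 0.0285). In efflux and fatty acid synthesis 8 of 18 genes rose and 1 fell. Lpin1, a phosphatidate phosphatase, rose by 0.53 (SE 0.0526), Gpam, which starts glycerolipid synthesis, by 0.50 (SE 0.0603) and Abca1, a cholesterol exporter, by 0.62 (SE 0.0873). The gene that fell was Abcg1, another cholesterol exporter (log2 fold change -0.426, adjusted p = 1.57e-05). The promoter windows of 19 cholesterol synthesis genes held the sterol element core CACCCCAC in 1, Ebp, against 2.57% of all windows.

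Transcription factors that keep sensory neuron identity went the other way. Of 28 tested, 12 were lower and none higher (1 with the replicate block), with a median of -0.202. Onecut1 (chr8:75599432-75633598) had 10.3, 13.0 and 18.0 CPM in IL ganglia, against 24.1, 28.8 and 33.1 CPM in CL ganglia (log2 fold change -1.12, SE 0.0962, adjusted p = 3.58e-11). Pou4f3, a POU factor of sensory neurons (chr18:34390205-34392797), had 13.0, 17.3 and 20.4 CPM in IL ganglia and 22.4, 26.0 and 29.3 CPM in CL ganglia (log2 fold change -0.57, SE 0.0954, adjusted p = 2.83e-05). No IL value reached the lowest CL value in either gene. Meis1, a homeobox factor of mechanoreceptors, fell by 0.64 (SE 0.124) and Nfia by 0.29 (SE 0.0516). Pou4f1 and Runx1, which specify all sensory neurons and nociceptors, had log2 fold changes of 0.02 (SE 0.0409) and 0.07 (SE 0.0647) and did not pass.

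The markers of neuron subtypes that such factors maintain gave 4 increases and no decrease in 36 genes (11.1% called), near the 14.1% over all genes. With limma-voom, DESeq2, a minimum count of 50, library totals alone, the replicate block or without IL number 4 or 5 there was 1 decrease, and 2 with numbers 5 and 6 crossed. Osmr, Spp1, Tafa4 and Prph were the 4. Mrgprd, the receptor of nonpeptidergic nociceptors, had 3.60, 7.84 and 11 CPM in IL ganglia and 10.4, 12.1 and 15.4 CPM in CL ganglia and missed the threshold (log2 fold change -0.69, SE 0.241, adjusted p = 0.0519). Its adjusted p was 0.0387 with limma-voom and 0.0377 with DESeq2, and it ran between 0.0226 and 0.136 over the settings run. The neurofilament genes Nefh, Nefm and Nefl, the structural proteins of large axons, had log2 fold changes between -0.09 and -0.02 and did not pass.

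**Figure D3:**
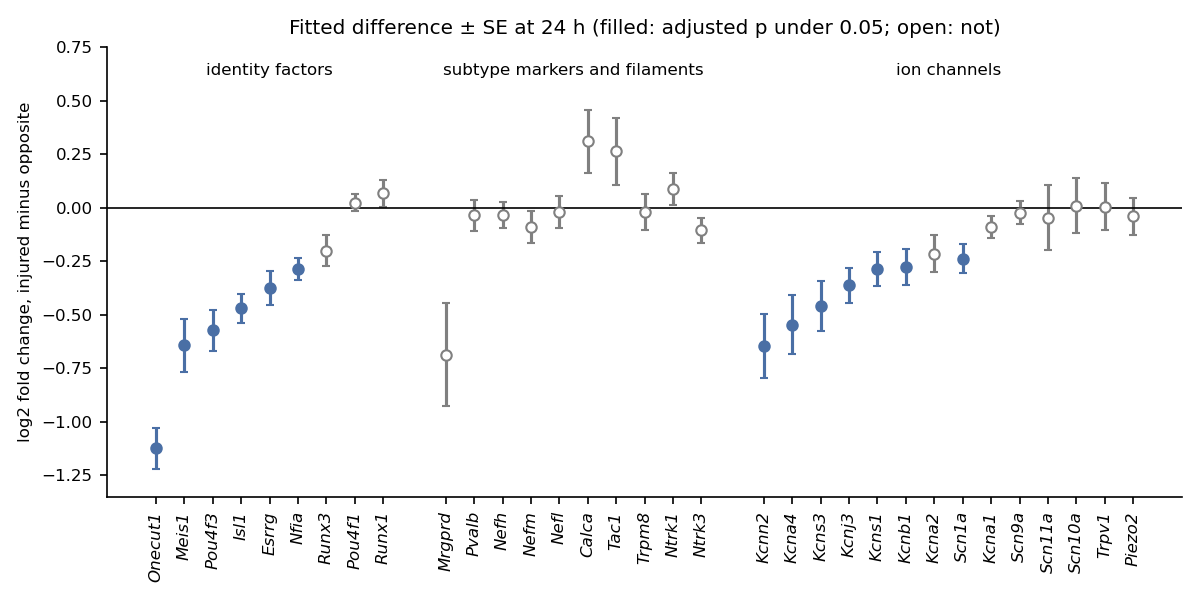
Fitted log2 fold change (IL minus CL, ± SE) of identity factors, subtype markers with filaments, and ion channels at 24 h. Filled points passed the adjusted p of 0.05: they lie below 0 among the factors and the potassium channels, while the nociceptor sodium channels Scn9a, Scn10a and Scn11a lie near 0.

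Potassium channels, which hold neurons below threshold, gave 9 decreases and no increase in 49 genes, with a median of -0.144. The share called was 18.4%, against 14.1% over all genes, where 5.89% were called lower. Kcnn2, a calcium-activated channel, had 4.45, 6.52 and 8.85 CPM in IL ganglia and 9.19, 10.6 and 12.3 CPM in CL ganglia (log2 fold change -0.65, SE 0.149, adjusted p = 0.00198). Kcna4, an A-type channel, fell by 0.55 (SE 0.138), Kcns3 by 0.46 (SE 0.119), Kcnj3, a G protein-gated channel, by 0.36 (SE 0.0833) and Kcns1, a modulatory subunit, by 0.29 (SE 0.0773). Kcna2 had a log2 fold change of -0.22 (SE 0.0862) and did not pass. Of 14 sodium channel genes 1 fell (7.14% called, against 14.1% over all genes). This was Scn1a, with 170, 178 and 189 CPM in IL ganglia and 193, 212 and 220 CPM in CL ganglia (log2 fold change -0.24, SE 0.0677, adjusted p = 0.0131). With the replicate block 2 sodium channel genes rose and 2 fell. The nociceptor channels Scn9a, Scn10a and Scn11a had log2 fold changes of -0.02 (SE 0.055), 0.01 (SE 0.128) and -0.05 (SE 0.152).

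Calcium channel genes gave 5 increases and 3 decreases in 25. Cacna2d1, the alpha2delta subunit bound by gabapentin (chr4:18950611-19374969), had 71.5, 90.1 and 119 CPM in IL ganglia and 49.7, 54.9 and 59.99 CPM in CL ganglia (log2 fold change 0.74, SE 0.119, adjusted p = 2.3e-05). Stac2, a channel adaptor, rose by 2.22 (SE 0.312), and Rem2, a small GTPase that inhibits calcium channels, fell by 0.69 (SE 0.169). The T-type channel Cacna1h fell by 0.47 (SE 0.144, adjusted p = 0.0235), a call lost when the 12 libraries were fitted alone. The call was also lost with no filter, without numbers 5 and 6, and without CL number 2 or 5 or IL number 3 or 6.

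Among 24 neuropeptide and opioid receptors, 5 rose and 2 fell, with 3 increases without IL number 2 or 6. Oprk1, the kappa opioid receptor (chr5:13860016-13877823), had 1.26, 2.51 and 4.31 CPM in IL ganglia and 2.87, 6.84 and 9.48 CPM in CL ganglia. The sides overlapped but each pair of the same number had the lower value on the injured side (log2 fold change -1.34, SE 0.253, adjusted p = 0.000194). Oprm1, the mu receptor, had 4.17, 5.07 and 5.74 CPM in IL ganglia and 4.96, 6.17 and 7.90 CPM in CL ganglia and did not pass. Bdkrb2, the bradykinin receptor of nociceptors, rose by 0.88 (SE 0.102) and Galr2, a galanin receptor, by 0.88 (SE 0.115). Adrenergic, cholinergic, serotonin and cannabinoid receptors gave 4 increases and 4 decreases in 31. Htr2b, a serotonin receptor, had 0.764, 2.51 and 3.55 CPM in IL ganglia and 0.0936, 0.134 and 0.511 CPM in CL ganglia (log2 fold change 3.62, SE 0.383, adjusted p = 5.03e-09). Htr1d, a receptor targeted by triptans, had a log2 fold change of -0.74 (SE 0.115) and Adra2c, an inhibitory adrenergic receptor, of -0.70 (SE 0.101). The related serotonin receptor genes Htr1b and Htr1f rose, by 0.448 (adjusted p = 0.00265) and 1.42 (adjusted p = 0.00533). In the list of TRP, mechanosensitive and related channels, 2 genes rose and 1 fell in 35 (8.57% called, against 14.1% over all genes). Trpv2 rose by 0.45 (SE 0.0613), and Trpv1, the capsaicin receptor, had a log2 fold change of 0.00 (SE 0.111). The increases there were 1 without CL number 3 or 5 or IL number 2 or 4, and the decreases 3 with the replicate block.

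Trpm6, a magnesium channel, had 2.61, 4.34 and 5.84 CPM in IL ganglia and 7.66, 9.25 and 10.8 CPM in CL ganglia (log2 fold change -1.09, SE 0.168, adjusted p = 8.1e-06). Cdh3, the P-cadherin gene, had 5.89, 10.2 and 14.8 CPM in IL ganglia and 19.9, 20.6 and 23.6 CPM in CL ganglia (log2 fold change -1.04, SE 0.184, adjusted p = 9.15e-05). Tspoap1, a scaffold of release sites, fell by 1.00 (SE 0.110) and Cdh10, another cadherin, by 0.94 (SE 0.121). In each of these 4 genes the highest IL value was below the lowest CL value. Pcdh11x, a protocadherin, had a log2 fold change of -0.91 (SE 0.161), Insyn2b, an inhibitory synapse gene, of -0.90 (SE 0.213) and Minar1 of -0.86 (SE 0.146), again with no overlap. Of 37 axon guidance and adhesion genes 4 rose and 7 fell. The decreases were 4 without CL number 5 or IL number 2 or 4, and 3 without IL number 3. Efnb2, an ephrin, fell by 0.46 (SE 0.0535).

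Long noncoding RNA genes gave 74 increases and 30 decreases in 1424 tested (7.3% called), below the 14.1% over all genes. LOC108352323 (chr11:42102200-42107136) had 2.59, 5.67 and 11.8 CPM in IL ganglia and 0.139, 0.212 and 0.417 CPM in CL ganglia (log2 fold change 4.49, SE 0.406, adjusted p = 3.51e-10). It lies inside St3gal6, which was lower. LOC102551701 (chr20:21651792-21665185) had 3.27, 11.9 and 24.4 CPM in IL ganglia and 0.279, 0.615 and 0.770 CPM in CL ganglia (log2 fold change 4.39, SE 0.391). The sides of both genes were far apart. LOC102549203 (chr8:75584843-75590148) had 4.69, 6.63 and 9.24 CPM in IL ganglia and 10.3, 13.4 and 18.8 CPM in CL ganglia (log2 fold change -1.03, SE 0.157, adjusted p = 7.76e-06). It ends 9284 bases before Onecut1 on the same strand, and both were lower. LOC100912188 rose by 1.09 (SE 0.164) and overlaps Gadd45a on the opposite strand. LOC120103602 rose by 1.73 (SE 0.233) and had -0.20 at 1 week (change 1.94, SE 0.290, adjusted p = 1.07e-06). The labels name a stranded kit but not how strand was used in counting, so reads of such overlapping genes may not be told apart.

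Of 35 macrophage genes 2 rose and 2 fell (11.4% called), near the 14.1% over all genes. The increases were 0 without CL number 3, 5 or 6 or IL number 2 and 1 without CL number 1 or 4 or IL number 1, 4 or 6, and the decreases were 1 without CL number 1, 2, 3 or 5 or IL number 2, 3, 5 or 6. The 22 genes of MHC class II and complement and 31 interferon and MHC class I genes held none. In both lists 0 genes had an unadjusted p under 0.05, and limma-voom and DESeq2 called 0. Aif1, a macrophage marker, had 8.57, 9.34 and 17.9 CPM in IL ganglia and 6.17, 7.77 and 9.55 CPM in CL ganglia and did not pass (log2 fold change 0.49, SE 0.208), but did with the replicate block (adjusted p = 0.0298). The summed level of the 36 macrophage markers was 2275 to 2545 per M counts in IL ganglia and 2024 to 2510 in CL ganglia, with Marco at 0 in all. Myelin genes held no call in 22, and 1 decrease with the replicate block (1 at an unadjusted p under 0.05, 0 with limma-voom or DESeq2), with 21440 to 36830 per M counts in IL ganglia and 25860 to 38810 in CL ganglia. Repair Schwann cell genes were the single list of 12 whose summed level differed in the exact two-sided permutation test, with 2316 to 2714 per M counts in IL ganglia and 2044 to 2276 in CL ganglia (p = 0.00216, the smallest that 6 against 6 can give; adjusted over 12 lists 0.026). Jun, Bdnf, Gap43 and Cdkn1a of that list are also made by injured neurons. The permutation test treated the libraries as independent and did not use the pairing of sides within animals.

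Genes of blood, marrow, bone, muscle and fat were called lower on the injured side in counts that moved with single libraries. Monocyte and neutrophil markers summed to 48.1, 65.1 and 198 per M counts in IL ganglia and to 51.6, 176 and 831 in CL ganglia (exact permutation p = 0.136, adjusted 0.289). Erythroid markers summed to 293, 472 and 1324 per M counts in IL ganglia and to 493.2, 846 and 3489 in CL ganglia (exact permutation p = 0.162). The highest value of both was that of CL number 5, which also had the most muscle and fat transcripts. The calls in these lists were 5 lower of 22 for monocytes and neutrophils, 6 lower of 16 for erythroid cells, 6 lower of 18 for bone and cartilage and 5 lower of 14 for muscle and fat. The summed level of bone and cartilage markers pointed the other way, with 1307, 1579 and 1810 per M counts in IL ganglia and 1120, 1334 and 1666 in CL ganglia. Of its 18 tested members, however, only 1 had a log2 fold change above 0. This was Spp1 (0.348), which is also listed as a sensory neuron subtype marker, so the sum does not describe the list as a group. Without CL number 5 none of these decreases was called. Other libraries moved the counts too. Monocyte and neutrophil decreases were 1 without IL number 2 or 4, 2 without CL number 3 or IL number 5, and 9 to 14 without CL number 1 or 6 or IL number 3 or 6. Erythroid decreases were 0 without IL number 2 or 4, 2 without IL number 1, 3 without IL number 5 and 11 without IL number 6. Muscle and fat decreases were 3 without IL number 1 or 2 and 8 without CL number 2, 4 or 6. Of 40 cell cycle genes 9 fell, 1 without CL number 5, 3 without IL number 2 or 4, 4 without CL number 3 or IL number 5, and 15 without CL number 2 or 6. Mmp13 and Acp5, genes of bone-resorbing cells and collagen breakdown, are among the 15 largest decreases. Mmp13 had 0.921, 1.17 and 2.78 CPM in IL ganglia and 1.07, 2.91 and 32.8 CPM in CL ganglia, with 32.8 in CL number 5; its log2 fold change of -2.45 was -0.93 without that library (adjusted p = 0.508). Acp5 was -1.09 with it and -0.37 without it (adjusted p = 0.353). Of 3 more of the 15, Ccna2, a cyclin, was -0.98 with CL number 5 and -0.67 without it, Gpx3, a secreted peroxidase, -1.13 and -0.75, and Ccdc80, a matrix protein, -0.93 and -0.72. All 3 were called either way. With the replicate block neither Mmp13 (adjusted p = 0.113) nor Acp5 (0.0629) was called, and the decreases were 1 for monocytes and neutrophils, 2 for erythroid cells and 2 for bone and cartilage. Without CL number 5 there were 12 decreases among the identity factors and 9 among the potassium channels. Without numbers 5 and 6 of both sides these counts were 7 and 4, in a fit of fewer libraries.

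**Figure D4:**
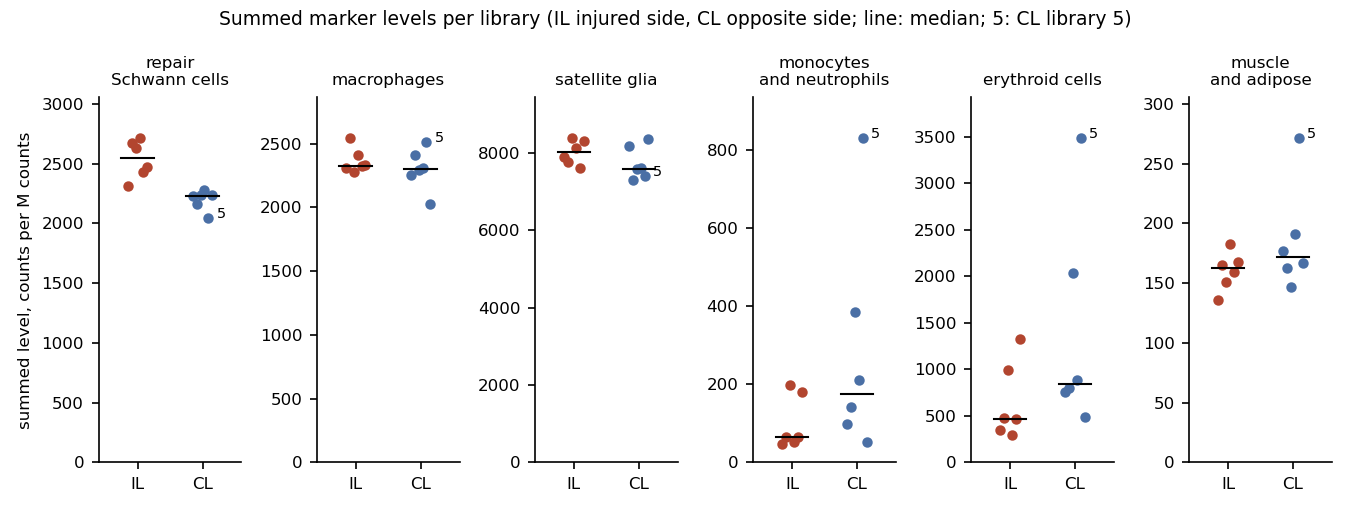
Summed level of 6 marker lists in each library (per M counts), IL left of CL, with a line at the median and CL library 5 marked. That library is highest for monocytes and neutrophils, erythroid cells, and muscle and fat, and not for satellite glia or repair Schwann cells.

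The strength of the answer differed between the injured-side libraries, for increases and for decreases. In the 15 largest increases IL number 1 was the lowest of the 6 IL libraries for 12 genes and number 6 the highest for 10, and numbers 1 and 5 were the 2 lowest for 15 and 14 genes. The median difference from the CL mean (log2 with 0.25 CPM added) was 1.80 in number 1 and 2.18 in number 5, and 2.74 to 3.10 in the other 4. In the 15 largest decreases the same median was -0.64 in number 1 and -0.83 in number 5, and -0.91 to -1.26 in the other 4. These genes were chosen on the same libraries, so the values describe the spread within the injured side and carry no test. Pairs are as labelled, though deviations of the 2 sides from their group means correlated at only -0.00702 in number 5 and -0.0265 in number 6. Averaged within these pairs, the 31 injury factors differed between sides by 0.556 (log2) in number 1 and 0.70 in number 5, against 0.874 to 1.24 in the others. The 28 identity factors differed by -0.119 and -0.11, against -0.169 to -0.475. The 27 cholesterol synthesis genes did not follow that order, with 0.242 in number 1, 0.164 in number 5 and 0.207 to 0.311 in the others. Why libraries differed was not tested. Each side of an animal gave 1 library, so animal, ganglion and library cannot be told apart.

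The 24 h answer was set against that of males at 1 week (7 IL and 7 CL ganglia), with a fit over both count tables. The difference between sides was not the same at both times for 4418 of 19223 genes (23.0%), while 8719 genes (45.4%) differed between sides at 1 week. Of the 2556 genes called at 24 h, 73.44% were also called at 1 week, and those shared calls were 21.97% of the 8544 calls at 1 week among genes tested in both fits. Among the shared calls 91.53% had the same sign. Libraries of the 2 times are in different tables, so time, table and sequencing run cannot be told apart beyond the difference of sides within each.

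For leading injury genes the change between times did not pass the test. Atf3 differed by 4.74 at 24 h and 4.80 at 1 week, Sox11 by 3.26 and 2.97 and Socs3 by 2.63 and 2.61. Sides differed more at 24 h in Alkal2, by 4.15 against 2.93 at 1 week (change 1.23, SE 0.342, adjusted p = 0.00589), and in Gdf15, by 2.80 against 0.47 (change 2.34, SE 0.445, adjusted p = 6.69e-05). Calcb rose at 24 h by 0.71 and had -0.03 at 1 week (change 0.74, SE 0.145, adjusted p = 0.000122). The 6 genes with the smallest p of the change among those that differed more at 24 h included 3 of lipid synthesis. Insig1 differed by 0.60 at 24 h and -0.23 at 1 week (change 0.83, SE 0.0819, adjusted p = 5.8e-11), Lpin1 by 0.53 and -0.10 (change 0.64, SE 0.0626) and Chka, the first enzyme of phosphatidylcholine synthesis, by 0.35 and -0.15 (change 0.50, SE 0.0658). Pdp1, which activates pyruvate dehydrogenase, differed by 1.00 and 0.38, Hs3st5, a heparan sulfate sulfotransferase, by 0.76 and -0.04, and Togaram2 by 0.98 and -0.42. Each of these passed the test of the change with an adjusted p of at most 2.72e-07.

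**Figure D5:**
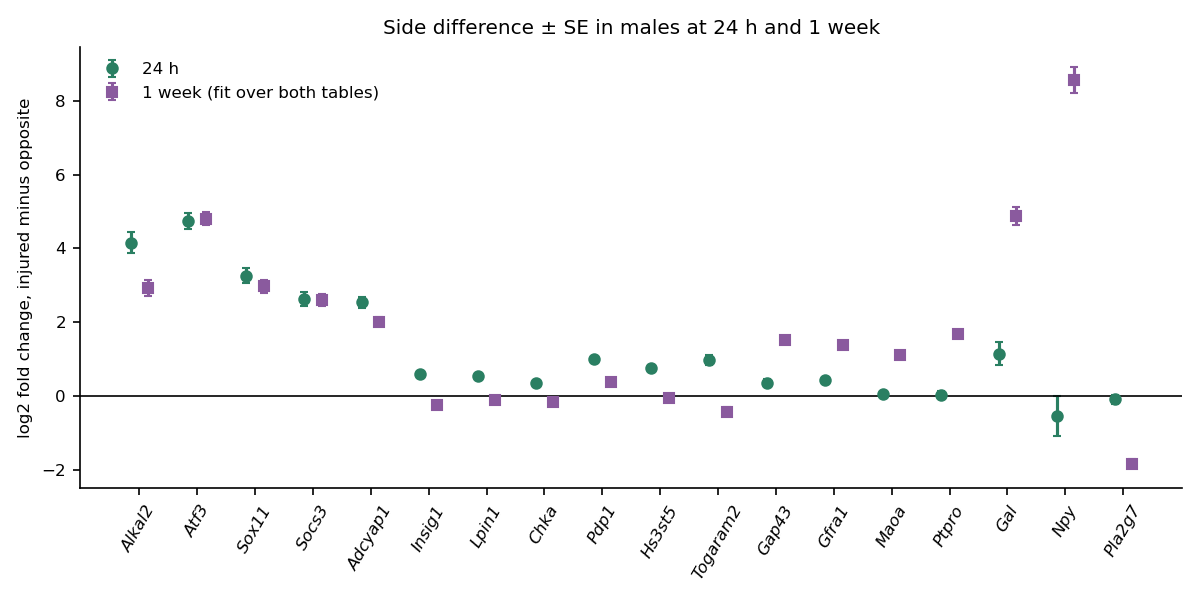
Difference between sides (log2 fold change, IL minus CL, ± SE) of 18 genes in males at 24 h (circles, fit of the 24 h table) and 1 week (squares, fit over both tables). Atf3, Sox11 and Socs3 lie together at both times, Insig1, Lpin1 and Chka are above 0 at 24 h and below 0 at 1 week, and Npy, Gal, Gap43 and Ptpro are far higher at 1 week.

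Other genes differed more at 1 week. Npy differed by -0.55 at 24 h and 8.56 at 1 week (change -9.11, SE 0.685, adjusted p = 2.17e-14) and Gal by 1.15 and 4.89 (change -3.74, SE 0.377, adjusted p = 2.18e-10). Gap43 differed by 0.36 and 1.52 (change -1.16, SE 0.119) and Gfra1 by 0.43 and 1.38 (change -0.95, SE 0.0883). Ptpro, a receptor phosphatase, and Maoa, which breaks down amines, did not pass at 24 h and differed by 1.68 and 1.12 at 1 week. Pla2g7, a secreted phospholipase that degrades platelet-activating factor, had -0.08 at 24 h and -1.83 at 1 week (change 1.75, SE 0.176, adjusted p = 1.85e-10). Several channels did so too. Scn1a differed by -0.24 at 24 h and -0.92 at 1 week (change 0.69, SE 0.0958), Kcna2 by -0.22 and -0.95 (change 0.74, SE 0.117) and Cacna2d1 by 0.74 and 2.06 (change -1.32, SE 0.157). Onecut1 differed by -1.12 at 24 h and -0.95 at 1 week and Isl1 by -0.47 and -0.43, and neither change passed the test. A p that misses the threshold does not show equal size.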

How the data were processed

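Poly-A RNA from L4 ganglia was sequenced single-end from a stranded kit, per the labels' protocols. Per the submitters' processing notes reads were handled with featureCounts 1.6.4, STAR 2.7.2b, cutadapt 2.5 and bcl2fastq 2.20.0.422 on the build mRatBN7.2; how strand was used is not given in the sources used here. Reads shared between genes enter the deposited estimated counts as fractions. Rounding them changed library totals by at most 0.0054%. Total counts were 16.9 to 26.6 M in IL libraries (ribosomal RNA 0.694% to 1.11%) and 20.6 to 24.0 M in CL libraries (0.643% to 1.10%).

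The 38 libraries of the second count table were fitted together, since they share 1 estimate of the spread, with R 4.3.3 and edgeR 4.0.16 (TMM scaling, filterByExpr with a minimum count of 10, robust quasi-likelihood, group means, no replicate block), and the contrast was M 24 h IL minus CL with Benjamini-Hochberg adjustment at 0.05. The change between 24 h and 1 week came from 1 fit over all 62 libraries, and all values given for 1 week come from that fit. Levels are CPM on TMM-scaled sizes. Marker lists were summed per M counts and compared by an exact two-sided permutation test. The labels give both sides of an animal the same code and number. Deviations from the group means correlated at 0.205, 0.354, 0.224 and 0.403 for numbers 1 to 4, but at -0.00702 and -0.0265 for numbers 5 and 6, where IL number 6 with CL number 5 gave 0.283 and IL number 5 with CL number 6 gave 0.145.

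The members and the 58 gene lists (1380 of 1388 genes matched by symbol) were chosen with earlier results of these data known. Named are the label checks, the 15 largest increases and decreases (mean log2 CPM of at least 1, same sign in 6 of 6 pairs), each list's preset genes and 6 smallest p, the 6 smallest p of the change in each direction and 8 long noncoding RNA genes. Mars1, the genes beside noncoding RNAs and members named in a count of calls were added after values were seen. On counts simulated for this contrast over 18135 genes, 48% of genes changed 1.25-fold, 64% of those changed 1.5-fold, 88% at 2-fold and 92% at 4-fold were found (50 genes each), with 5 false calls. Far fewer genes were changed there than were called in the data, and libraries were drawn as independent with none standing apart. These shares hold for that setting only. Alternatives were DESeq2 1.42.0, limma-voom 3.58.1, other scalings and filters, the 12 libraries alone, replicate blocks, a ribosomal RNA term and leaving out libraries. A named gene that was not called counts as reversed only where an alternative calls it the other way.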

Additional observations from a re-analysis of the deposited data

Results flagged for a closer look

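In 14 of 122 groups of 6 values examined, the highest or lowest library stood apart by Dixon's gap ratio. Chance flags about 1 in 20 such groups where values are normally distributed. The values here were not put on a log scale and each flag was of a highest library, so that rate need not hold. Number 5 of the opposite side accounts for 5 of the 14 flags, with 271.4 per M counts of muscle and adipose markers, 25.3 CPM of Acp5, 6.73 CPM of Ccna2, 32.8 CPM of Mmp13 and 36.6 CPM of the Y-linked Kdm5d. Number 6 gave 49.1 CPM of Cxcl13 on the injured side and 5.47 CPM on the opposite side. Number 4 had 3.41 CPM of Npy and 12.9 CPM of Gpx3 on the injured side, and 96.3 CPM of Eif2s3y and 17.9 CPM of Hs3st5 on the opposite side. Mmp13 had 2.78 CPM in IL number 3 and Cdh3 had 23.6 CPM in CL number 2, and CL number 1 held the most counts of its group, 24.0 M.

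The difference between sides itself differed between 24 h and 1 week, by an interaction term, in 23 of 45 genes examined. Over all genes of that fit the share was 23.0%. The 45 include the 6 genes with the smallest p of the change in each direction, which passed by the way they were chosen. The 23 are therefore no measure of how common a change was. The change is given here as the log2 difference at 24 h minus that at 1 week. It was above 0 in Pla2g7 (1.75), Togaram2 (1.41), Alkal2 (1.23), Insig1 (0.83), Hs3st5 (0.80), Lpin1 (0.64), Pdp1 (0.62), Adcyap1 (0.52), Chka (0.50) and the Y-linked Eif2s3y (0.25). It was below 0 in Npy (-9.11), Gal (-3.74), Tgm1 (-2.59), Ptpro (-1.63), Acp5 (-1.61), Ccna2 (-1.61), Gpx3 (-1.28), Ccdc80 (-1.26), Gap43 (-1.16), Maoa (-1.06), Pcdh11x (-1.03), Gfra1 (-0.95) and Cdh10 (-0.60).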

How the results depend on the processing

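The count of 2556 genes (1487 higher, 1069 lower) was 2532 with DESeq2's size factors, 2581 with library totals alone, 2141 with no filter, 2498 with a minimum count of 50, 2426 with limma-voom, 2623 with DESeq2 and 2519 with the ribosomal RNA share as a covariate. Fitted alone, the 12 libraries gave 1597 calls (549 lower), of which 1530 were also in the fit of 38. Without numbers 5 and 6 there were 1458 calls (986 higher, 472 lower). With the replicate block there were 3142 calls (1723 higher, 1419 lower), and with numbers 5 and 6 crossed, an alternative chosen with the data known, 3298. Leaving out 1 library gave 2042 (CL number 5) to 3043 (IL number 1) calls, with 1234 to 1739 higher and 783 to 1304 lower. The share of calls that were higher was 58.18%, and 52.03% with library totals alone, 65.62% with the 12 libraries alone and 67.63% without numbers 5 and 6. Genes whose side difference changed between times numbered 4418, against 5579 with the replicate block, 3466 without numbers 5 and 6 and 3772 to 4614 with 1 library left out. Of 376 named genes 275 were called and 167 kept the call in each setting run, and none changed sign with a call. The call was lost in 66 with the 12 libraries alone, 92 without numbers 5 and 6, 34 with limma-voom and 18 with the replicate block, among them Acp5 and Mmp13. Without numbers 5 and 6 the decreases in identity factors were 7 and those in potassium channels 4, and with the 12 libraries alone 9 and 11. List counts of 1 were 0 to 4 with 1 library left out. The cause of these shifts was not tested, except that fewer samples entered the fits that leave libraries out.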
